A study of Mus musculus with 2 samples.

Results

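Accessible chromatin at the genes Gata4, Gata5 and Gata6 was read from DNase-seq of newborn mouse stomach. DNase-seq sequences the fragment ends released where the enzyme DNase I can cut exposed DNA. For each gene the annotated body (GENCODE M21, build mm10) and 10 kb of flank at both ends were taken as its locus. The 3 loci, of 21911 protein-coding genes, held 25 peaks of replicate 1 (of 139374) and 37 peaks of replicate 2 (of 152779). Where a peak of one replicate overlapped a peak of the other by at least 1 bp, the peaks were joined into a shared region, and 23 of 105606 shared regions lay in these loci. The tissue was whole stomach of B6NCrl mice on postnatal day 0, as 1 group of 2 biological replicates with 1 library each. Both libraries carry the same donor in the labels, the sex was not collected, and whether single animals or pools were used is not given in the sources used here. With no second group, the values below are descriptions of 2 libraries, without a test. In whole tissue, a site open in few cells and a site weakly open in many cells cannot be told apart.

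Gata4, Gata5 and Gata6 encode zinc-finger transcription factors that bind DNA at sequences with the core GATA. They are the endodermal and cardiac branch of the family, while Gata1, Gata2 and Gata3 are best known from blood and other lineages. In the stomach, GATA factors were described early on as proteins bound upstream of the genes of the gastric proton pump, and Gata4 and Gata6 are used in gut epithelium as well as in heart and gut mesoderm.

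The sequences below are the 2 of 8 intronic regions of Gata4 that hold a GATA string, shown because they hold one, the 2 shared sites of Gata5, which are all it had, and the Gata5 promoter, where peaks were called in replicate 2 only. All are written 5′ to 3′ from RefSeq GRCm38.p6, the genome of build mm10. Capitals mark each match on either strand to the strings named in the sentence after them, and a match is a description, not a bound site.
Gata4 intron, chr14:63205436-63205625, plus strand: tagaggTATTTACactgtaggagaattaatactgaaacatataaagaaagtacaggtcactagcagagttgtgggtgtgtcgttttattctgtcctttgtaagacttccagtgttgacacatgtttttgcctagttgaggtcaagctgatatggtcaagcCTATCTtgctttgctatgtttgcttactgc
Gata4 intron, chr14:63255576-63255725, plus strand: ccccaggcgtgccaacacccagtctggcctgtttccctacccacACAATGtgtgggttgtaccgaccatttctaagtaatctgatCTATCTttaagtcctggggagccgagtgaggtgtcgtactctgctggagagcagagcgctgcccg
Gata5 downstream, chr2:180320276-180320425, plus strand: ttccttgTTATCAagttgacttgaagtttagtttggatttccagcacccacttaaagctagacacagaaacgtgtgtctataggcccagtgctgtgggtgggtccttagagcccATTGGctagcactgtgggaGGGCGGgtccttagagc
Gata5 upstream, chr2:180343196-180343365, plus strand: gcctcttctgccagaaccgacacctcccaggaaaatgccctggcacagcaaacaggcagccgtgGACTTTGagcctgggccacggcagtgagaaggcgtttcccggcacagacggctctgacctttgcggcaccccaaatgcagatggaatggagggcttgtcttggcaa
Gata5 promoter, chr2:180334700-180334929, minus strand: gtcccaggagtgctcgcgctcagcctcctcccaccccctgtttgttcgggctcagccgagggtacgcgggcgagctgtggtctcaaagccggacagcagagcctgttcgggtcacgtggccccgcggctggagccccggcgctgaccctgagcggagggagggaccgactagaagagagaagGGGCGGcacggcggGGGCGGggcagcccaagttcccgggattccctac
In the first Gata4 intron sequence the capitals are a FOXA string (TATTTAC) and a GATA string (AGATAG, read here as its reverse complement CTATCT). No single peak held both strings: the FOXA string lay in the replicate 1 peak only and the GATA string in the replicate 2 peak only. In the second sequence the capitals are a SOX string (CATTGT, read as ACAATG) and again AGATAG. The downstream Gata5 region holds the GATA string TGATAA (read as TTATCA), an NFY string (CCAAT, read as ATTGG) and a KLF/SP string (GGGCGG), and the upstream region an HNF4 string (CAAAGTC, read as GACTTTG). The Gata5 promoter holds 2 KLF/SP strings and no GATA string. Over the 32851 RefSeq promoters, each 250 bases before and 50 after a start, 35.7% held GGGCGG and 29.8% a GATA string. The 230 bases shown have a GC content of 70.4% and 21 CpG dinucleotides. In the full RefSeq window Gata5 had 69.7% and 26 CpG, against medians of 52.7% and 7 over those promoters. There too it held 2 KLF/SP strings and no GATA string. The shares at promoters of like GC content were not counted.

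Gata4 had the most accessible sites of the 3 genes. Its locus (gene on the minus strand of chromosome 14, 63198922 to 63271692) held 13 peaks in replicate 1 and 17 in replicate 2, and all 13 peaks of replicate 1 had a partner in replicate 2. Over the whole series 77.6% of replicate 1 peaks and 70.7% of replicate 2 peaks had one. Of the 13 shared regions, 8 lay in introns, 3 within 1 kb of a transcription start and 2 between genes.

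Gata4 was accessible in both replicates within 1 kb of the starts of 5 of its 6 annotated transcripts. These starts lie close together: Gata4-201 and Gata4-202 share 1 region, and Gata4-204, Gata4-205 and Gata4-206 share another. The peak signal used here is the deposited whole number, which reaches 149 and has no stated scale, so its percentile within the replicate's own list is given beside it. At the start of Gata4-201, the region at 63245316 to 63245485 had its centre 130 bp before the start and a signal of 110 in replicate 1 (percentile 98.1) and 115 in replicate 2 (97.7). It was the strongest region of the locus, GC-rich at 70.6% with 17 CpG dinucleotides in 170 bp. At the start of Gata4-204, 26.4 kb farther upstream, the region at 63271636 to 63271805 had a signal of 92 (93.0) and 103 (94.2), and it held 2 GATA strings. That upstream site was plainer in base composition, with a GC content of 52.4% and 6 CpG. The start of Gata4-203, inside the gene, had no peak within 1 kb in either replicate. The third region near a start belonged to a neighbour: at 63193776 to 63193925 it lay over the start of Neil2, with a signal of 65 (77.7) and 79 (81.1).

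The introns of Gata4 held sites as high in the lists as its upstream promoter region, and below that of Gata4-201. The intronic region at 63205436 to 63205625, toward the 3′ end of the gene and shown above with a FOXA and a GATA string, had a signal of 96 (94.4) and 107 (95.5). The region at 63264896 to 63265065, between the upstream starts and Gata4-201, had 93 (93.4) and 106 (95.2). The neighbouring pair at 63255576 to 63255725 and 63256016 to 63256185, about 10.4 and 10.8 kb upstream of Gata4-201, had 86 (90.6) and 75 (77.7), and 93 (93.4) and 102 (93.8). The first of this pair is the intron sequence with a SOX and a GATA string, and the second was CpG-rich, with 18 CpG in 170 bp. The pair lay less than 1 kb apart and differed between the replicates: the first fell back in rank in replicate 2, the second did not. The other intronic regions, at 63207216, 63227856, 63232676 and 63237316, had signals of 73, 74, 77 and 65 in replicate 1 and 94, 93, 96 and 73 in replicate 2. Downstream of the gene, regions at 63195236 and 63195876 had 91 and 62 in replicate 1 and 85 and 78 in replicate 2. The lowest signal among the 13 regions was 62 in replicate 1 and 73 in replicate 2, both above the medians of 44 and 52 over the whole lists.

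Peaks of Gata4 seen in a single replicate were all of replicate 2. They were 4 intronic peaks with signals of 82, 58, 36 and 72 at 63265836, 63269036, 63269416 and 63269736, and the last 3 lay 1313 to 2013 bp downstream of the start of Gata4-205. The hotspots, wider stretches of raised cleavage called from the same alignments, showed the same difference there. They are therefore not a second measurement. A hotspot of 425 bp at 63269532 to 63269956 reached the ceiling of the deposited -log10 q value (100) in replicate 2 and had no partner in replicate 1.

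Most shared sites of Gata6, 6 of 8, lay at or upstream of its 5′ end. The locus (plus strand of chromosome 18, gene at 11052064 to 11085635) held 10 peaks in each replicate, of which 8 were shared in each. Of the 8 shared regions, 4 lay within 1 kb of a start, 1 in an exon and 3 in introns. One of the 4, at 11050656, was near a start of 1010001N08Rik only and 1303 bp from the nearest start of Gata6. The exon and 1 of the introns lie upstream of Gata6 and belong to 1010001N08Rik. That gene is annotated on the opposite strand, and its 5′ end overlaps that of Gata6.

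The start of Gata6 carried the strongest site of the 3 loci. The region at 11052456 to 11052625, with its centre 71 bp after the start of Gata6-201, had a signal of 116 in replicate 1 (percentile 99.0) and 126 in replicate 2 (99.6). A second region at 11053156 to 11053305, centred 761 bp after that start, had 103 (96.5) and 104 (94.5). Both fell in 1 broad hotspot, 1401 bp wide in replicate 1 and 1500 bp in replicate 2, at percentile 99.17 and 99.06 of hotspot width in the same list. A hotspot this broad was not seen at Gata4, where the promoter hotspot at Gata4-201 was 498 and 448 bp wide.

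Upstream of Gata6 the sites were weaker than at its start. The region at 11051396 to 11051565, 989 bp before Gata6-201, had a signal of 75 (85.0) and 86 (85.9) and held 2 GATA strings. The regions at 11050656, 11049356 and 11048676 had 42, 56 and 46 in replicate 1 and 61, 74 and 67 in replicate 2. Farther into the gene, 2 more sites were shared, one at 11057716 to 11057865 with 60 (73.0) and 71 (74.0), and one at 11082156 to 11082345, near the 3′ end, with 44 (50.8) and 65 (67.4). Apart from these and the pair near the start, the gene body had no peak in either replicate. The peaks seen once, with signals of 51 and 71 in replicate 1 and 57 and 52 in replicate 2, all lay among the upstream sites.

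Gata5 differed between the replicates. Its locus (minus strand of chromosome 2, gene at 180325133 to 180334699) held 2 peaks in replicate 1 and 10 in replicate 2, and 2 shared regions. Both shared regions lay outside the gene. The one upstream, at 180343196 to 180343365 and 8582 bp before the start, had a signal of 75 in replicate 1 (percentile 85.0) and 93 in replicate 2 (89.8). Its hotspot was 330 bp wide with a -log10 q value of 3.89 in replicate 1, and 683 bp wide at the ceiling of 100 in replicate 2. The one downstream of the gene, at 180320276 to 180320425, had 56 (68.5) and 60 (61.2). The gene body had no shared region.

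At the Gata5 promoter, replicate 2 had a run of weak to moderate peaks and replicate 1 had none. Within 1 kb of the start of Gata5-201, 5 peaks were called in replicate 2, at 180334176, 180334516, 180334636, 180334876 and 180335596. Their signals were 44 (percentile 35.0), 53 (51.0), 68 (70.8), 63 (65.0) and 47 (40.7). The hotspots there, called from the same alignments, were also of replicate 2 alone, with -log10 q values of 1.63 to 3.71, far from the ceiling. The peaks held 17, 9, 12, 10 and 5 CpG in 150 bp. Peaks of replicate 2 near starts and without a partner had a median of 4 CpG and a signal of 42. Those near starts with a partner had a median of 8 CpG and a signal of 73. The other 3 peaks of replicate 2 alone had signals of 47, 49 and 68. A promoter peak in replicate 2 and none in replicate 1 was found at 2.62% of protein-coding genes, and the reverse at 1.46%. At least 5 promoter peaks in replicate 2 with none in replicate 1 were found at 5 genes, Gata5, Dll1, Lhx8, Phf2 and Zfp462, a pattern chosen after seeing Gata5, and the reverse at 0 genes. The number of reads per library is unknown here, and the part of depth in this difference was not tested.

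**Figure D1:**
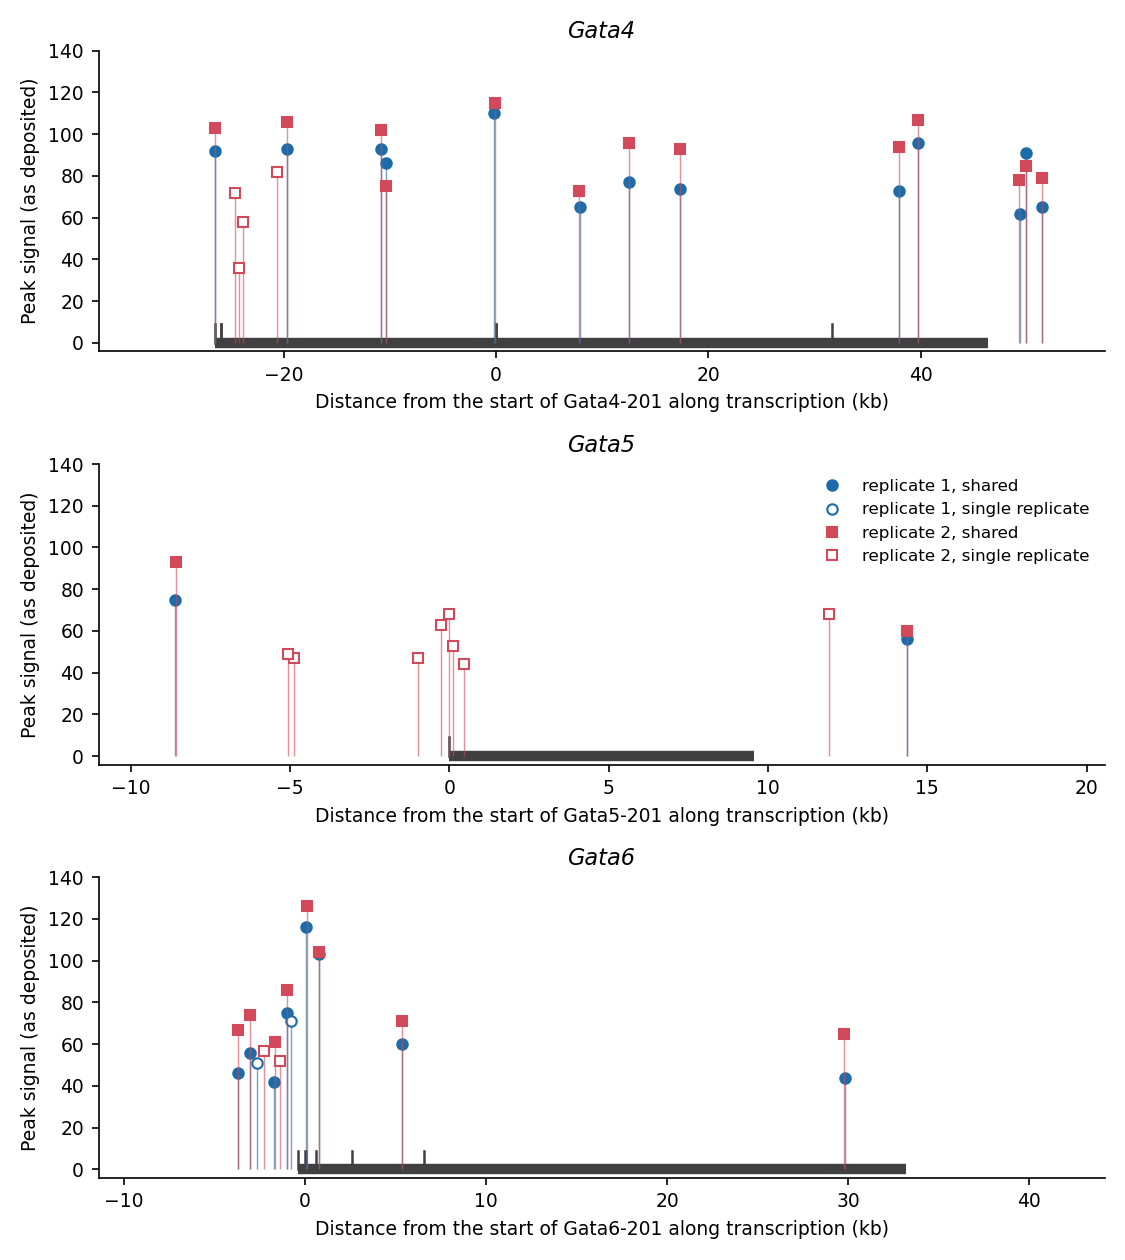
Peak signal as deposited (vertical axis, no unit) against distance in kb from the start of the transcript numbered 201 of each gene, along transcription, with circles for replicate 1, squares for replicate 2 and open symbols for peaks without a partner. The grey bar is the gene body and its ticks are annotated starts; Gata4 has 13 shared sites spread over the locus, Gata6 has its 2 strongest just after the start, and the Gata5 start has open squares only.

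By the promoter rule, a shared region within 1 kb of any annotated start, 2 of the 3 genes had an open promoter, Gata4 and Gata6, where 66.4% of protein-coding genes did. With 3 genes, that share cannot be read against the background. Gata5 was 8497 bp from its start to the edge of the nearest shared region, and 22.4% of protein-coding genes were at least that far. At Gata4 and Gata6 a shared region overlapped a start.

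By number of sites, Gata4 stood high among all genes, Gata6 above the middle and Gata5 below it. At least 13 shared regions, the count of Gata4, were found at 6.40% of protein-coding loci, at least 8, the count of Gata6, at 21.2%, and at least 2, the count of Gata5, at 74.0%. Loci differ in length, and among loci within 10% of its length Gata4 had 13 against a median of 6, with 75 of 913 other loci above it. Gata6 had 8 against a median of 5, with 279 of 1780 above it, and Gata5 had 2 against 3, with 1887 of 3477 above it. Per 10 kb of locus the densities were 1.40 for Gata4, 1.49 for Gata6 and 0.676 for Gata5, so Gata4 and Gata6 had similar densities and Gata5 a lower one. The median densities of loci of like length differed too, at 0.703 for Gata4, 0.907 for Gata6 and 1.00 for Gata5.

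**Figure D2:**
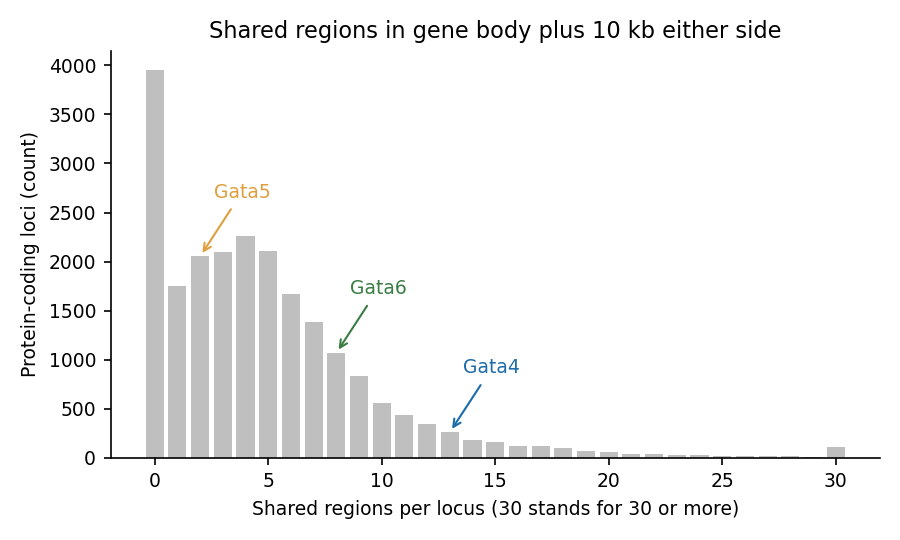
Number of protein-coding loci (vertical axis) by number of shared regions per locus as defined above (horizontal axis). Arrows mark Gata5 at 2, Gata6 at 8 and Gata4 at 13 regions; the median over all genes was 4.

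The replicates ranked the sites of these genes alike where both had a peak. Of the 23 shared regions, 22 lay above the median of both lists, where 57.6% of all shared regions did. The exception was the region of Gata6 at 11050656 (percentile 47.2 in replicate 1 and 62.5 in replicate 2). Percentiles correlated with a Spearman coefficient of 0.923 over the 23 regions and of 0.910 over all 105606, a description of regions that share 2 libraries. The percentile was higher in replicate 2 at 17 of 23 regions (73.9%, against 55.4% of all shared regions), at 9 of 13 of Gata4 and at 7 of 8 of Gata6. The largest gain was 16.6 percentile points at the region near the 3′ end of Gata6, and the largest drop 12.9 at the intronic region of Gata4 at 63255576.

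**Figure D3:**
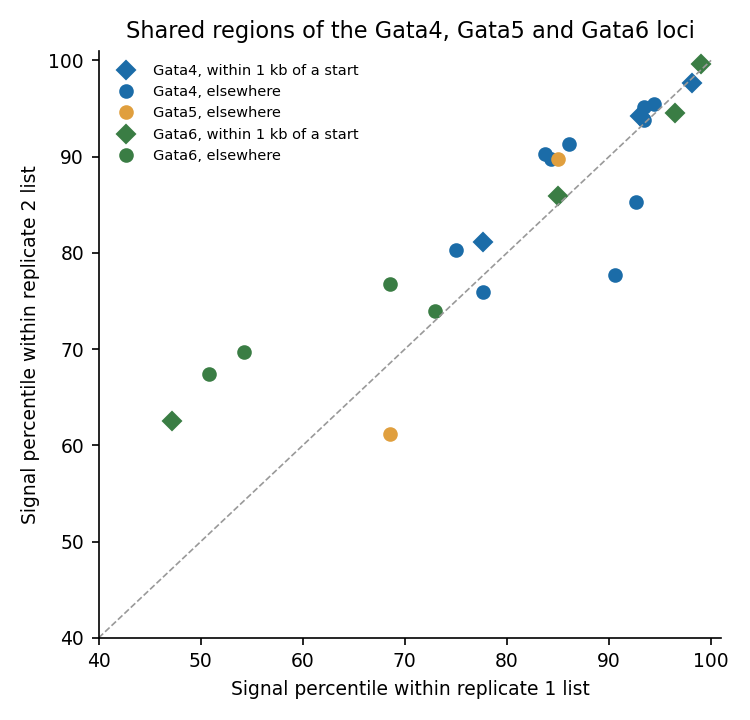
Signal percentile within the list of replicate 1 (horizontal axis) and of replicate 2 (vertical axis) for the 23 shared regions, with diamonds for regions within 1 kb of a start and the dashed line where both are equal. The strongest promoter regions of Gata6 and Gata4 sit in the upper right corner, the lowest diamond (47.2 and 62.5) is the region near a start of 1010001N08Rik in the Gata6 locus, and 7 of the 8 regions of Gata6 lie above the line.

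The share of sites with a GATA string was near that of all sites, though 23 regions set it only loosely. The 4 strings searched, on both strands, were AGATAA, the same with a final G (AGATAG), and the same pair with a first T in place of A, which are TGATAA and the form TGATAG. They were found in 6 of the 23 regions, or 26.1%, where 24.7% of all shared regions and 23.8% of those of the same widths held one. The exact 95% binomial interval was 10.2 to 48.4, for counting error only. It takes the regions as independent, though they lie in 3 loci and share 2 libraries. It is too wide to place the share above, at or below that of other regions. Away from starts 4 of 16 member regions held one, against 29.6% of all such regions. The 6 were 3 regions of Gata4, 2 of Gata6 and 1 of Gata5, and the strongest promoter regions of Gata4 and Gata6 held none. In 1 of the 6, the Gata4 intron region at 63205436, the string lay in the replicate 2 peak only.

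Of the strings of 9 other factors searched, CCAAT, bound by the promoter factor NFY, was in 6 of 8 regions of Gata6, in 1 of 13 of Gata4 and in 1 of 2 of Gata5, where 19.7% of all regions of the widths of the Gata6 regions held it. It was singled out after the strings of all 10 factors had been counted, and the 6 regions lie in or beside the 5′ end of Gata6. KLF/SP strings were in 7 of 23 regions against 17.5% of all regions of the same widths, with 3 at Gata4, 1 at Gata5 and 3 at Gata6. FOXA strings (TGTTTAC or the variant TATTTAC) were in 1 region, SOX strings in 2, HNF4 strings in 2 and the AP-1 string TGACTCA in 1, where 7.96, 7.58, 4.05 and 10.7% of all regions of the same widths held them. The ETS string CCGGAAG was in 1 region, over the start of Neil2, and in 3.62% of those regions. That Neil2 region was also the 1 region of the Gata4 locus with CCAAT, and 1 of its 3 with a KLF/SP string. No region held the GRHL string AACCGGT or the TEAD string ACATTCC, which were in 0.710 and 3.05% of all regions of the same widths.

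The other GATA genes had fewer shared regions than Gata4 or Gata6, while Gata5, with 2, was above Gata1 only. Per 10 kb of locus, Gata2 had 0.905 shared regions, Gata3 0.566 and Trps1 0.117, against 0.676 at Gata5. These densities were not set beside those of loci of like length. Gata1, the erythroid member, had no peak in its locus in either replicate. Gata2, of blood stem cells and endothelium, had 3 shared regions, Gata3, of T cells and several epithelia, had 3, and the atypical family member Trps1 had 3 over a locus of 256 kb. Of the cofactor genes, Zfpm1 (FOG1) had 18 shared regions and Zfpm2 (FOG2) 11. All but Gata1 of these 6 genes had a shared region at a promoter, as 66.4% of protein-coding genes did, and their median number of regions was 3 against 4 over all genes. Among 5 endoderm factors that act with GATA proteins, 4 had a shared promoter region, all but Sox17, which had no peak in its locus, and the median was 9. Foxa1 had 22 regions, Hnf4a 9, Foxa3 9 and Foxa2 4.

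**Figure D4:**
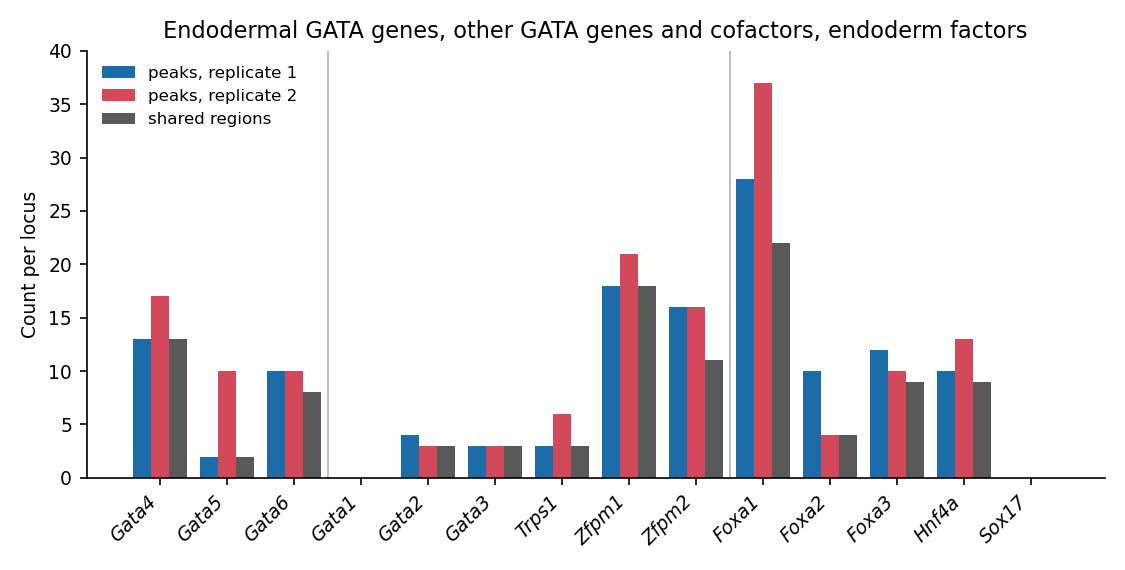
Peaks in replicate 1, peaks in replicate 2 and shared regions per locus (bars, counts) for the 3 endodermal GATA genes, for 6 other GATA genes and cofactors, and for 5 endoderm factors. Gata5 has 2 and 10 peaks, Gata4 13 and 17 and Gata6 10 in each replicate; Gata1 and Sox17 have no bar.

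Gastric genes, listed for GATA sites at their promoters, and cardiac genes, listed as controlled by GATA factors, are given as counts without a test. They stand beside the 66.4% of protein-coding genes with a shared promoter region. All 4 gastric genes of the list, the proton pump subunits Atp4a and Atp4b and the trefoil factors Tff1 and Tff2, had a shared promoter region, with 7, 4, 13 and 6 regions in their loci. Of 4 cardiac genes, 1 had one, Nppb, while Nppa, Myh6 and Nkx2-5 did not, and the 4 loci held 1, 1, 1 and 0 regions. Markers of stomach epithelium had a shared promoter region at 10 of 10 genes, those of heart muscle at 2 of 6 (Nppb and Tnni3), of liver at 2 of 4, of intestine at 1 of 4 and of mesothelium at 2 of 4. In the same order, their median numbers of shared regions per locus were 5.5, 1.0, 1.0, 5.0 and 2.5, against 4.0 over all genes. The stomach markers include the 4 gastric genes and the heart markers the 4 cardiac genes, so these counts repeat the earlier ones in part. The lists were chosen with earlier results of these data known, so these counts only describe the tissue. The part of each cell type in the GATA sites was not tested.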

How the data were processed

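Peaks and hotspots were called from each replicate's own filtered alignments on mm10, per the deposited file lists. Which aligner and caller were used is not given in the sources used here. Each peak's score, as deposited by the authors, is an integer without a stated scale, from 2 in replicate 1 and 3 in replicate 2 up to 149 on the chromosomes kept. It is printed as deposited, and levels were compared within a list or, between the lists, by percentile. Hotspots carry the deposited -log10 of a q value, by the file layout, with a ceiling of 100. The number of reads per library is unknown, so weak sites are limited by a depth that cannot be stated.

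Intervals on the 19 autosomes, X and Y were kept. Peaks were joined with Python 3.11.15 and pandas 2.3.3, tested on simulated data. Sequences were read with pysam 0.24.0 from GRCm38.p6. Genes are those of GENCODE M21, with 27 repeated symbols listed once. A region's place was set by its centre, in the order promoter (within 1 kb of any start), exon, intron, intergenic. The members, lists and strings were chosen with earlier results of these data known. All shared regions in the 3 loci were described, and 1 gene of the lists is not reported here. The RefSeq promoter set held a sequence for Gata5, which matched the genome, and none for Gata4 or Gata6. The alternatives tried were a stricter overlap, the stronger 50% of peaks, each replicate alone, other windows and other strings.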

Additional observations from a re-analysis of the deposited data

How the results depend on the processing

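The number of shared regions held within 1.5 times for Gata4 and Gata6 under a 50% overlap and with the stronger 50% of each list, and Gata5 kept 2. With the gene body alone the counts were 10 for Gata4, 4 for Gata6 and 0 for Gata5, and with 50 kb on either side they were 23, 16 and 10. Of the regions added there, 4 lay at starts of Fdft1 and 2 at a start of Rbbp8nl. In single replicates the counts were 13 to 17 for Gata4, 10 and 10 for Gata6, and 2 to 10 for Gata5. The promoter count of 2 genes became 3 in replicate 2 alone and was 2 in replicate 1 alone. Shared hotspots numbered 13 for Gata4, 7 for Gata6 and 2 for Gata5. Only counting those at the ceiling left 5, 2 and 0, and a 50% overlap left 1 for Gata5. In single replicates they were 13 to 17, 8 to 9 and 2 to 9. The strongest region stood at percentile 97.7 to 98.1 for Gata4, 99.0 to 99.6 for Gata6 and 85.0 to 89.8 for Gata5. GATA strings were in 13.0% of regions with AGATAA and TGATAA only and in 17.4% with AGATA only, against 16.7 and 21.8% of all shared regions. No paired analysis was possible because the series has 1 group.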
